A study of Mus musculus with 8 samples.

Results

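The genes described here encode 9 receptors for hormones of energy balance, measured in cells sorted as SST neurons from the lateral tuberal nucleus (TN) of the hypothalamus. They are the leptin receptor *Lepr*, the ghrelin receptor *Ghsr*, the glucagon-like peptide 1 receptor *Glp1r*, the insulin receptor *Insr*, the insulin-like growth factor 1 receptor *Igf1r*, the melanocortin receptors *Mc3r* and *Mc4r*, and the adiponectin receptors *Adipor1* and *Adipor2*. They were chosen by name, and all 9 were found among the 35968 genes of the series and passed the filter on low counts. The annotation lists 32 transcripts for them, and the long and short forms of *Lepr* are described separately. Libraries came from 4 female and 4 male adult mice that carried 1 copy of a Cre allele at the *Sst* locus (Ssttm2.1(cre)Zjh/J / +) on a C57BL/6J background. All had received AAV2-flex-tdTomato in the TN of both sides, so the females and males shared genotype, virus and diet and differed in sex. The females were cycling, the males were gonadally intact, and the stage of the cycle at collection was not given in the sources used here. Red cells were collected by flow cytometry and sequenced as 1 library per mouse (Flow-Seq). The label marks any injected cell that has used *Sst*, so neighbouring SST cells reached by the virus are included, and no library of unsorted cells was analysed here.

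These receptors report the state of energy stores and meals to the brain. Leptin, made by fat, acts on the long form of its receptor through the kinase JAK2 and the transcription factor STAT3, whereas the short forms lack most of the intracellular tail. Insulin and IGF1 act on related tyrosine kinase receptors through IRS adaptors and PI3 kinase. Ghrelin from the stomach, GLP1 from gut and brainstem, and the melanocortins cut from POMC act on G protein-coupled receptors, and AGRP opposes the melanocortins at MC3R and MC4R. Adiponectin receptors have 7 membrane-spanning segments but do not belong to the G protein-coupled family. In the hypothalamus, leptin, insulin and melanocortin signaling lower food intake and ghrelin raises it.

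Within the coding sequence, the long and short forms of *Lepr* part near its end. All 3 full-length coding transcripts share their exons up to chr4:101792070 (mm10, + strand). The following sequences are shown because they separate the forms. Each starts with the last 30 shared coding bases in lower case, and the capitals mark the bases that belong to that form, ending with the stop codon in *Lepr-202* and *Lepr-203* and cut after 60 bases in *Lepr-201*. They were read from the GENCODE M21 transcripts.
Lepr-201: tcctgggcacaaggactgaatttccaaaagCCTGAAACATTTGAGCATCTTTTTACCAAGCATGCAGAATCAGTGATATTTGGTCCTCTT
Lepr-203: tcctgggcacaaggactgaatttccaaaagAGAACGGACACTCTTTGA
Lepr-202: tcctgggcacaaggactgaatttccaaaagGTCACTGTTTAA
*Lepr-201* continues in an exon that starts at 101814448 and reads on for 273 codons before its stop, for 1162 codons in all, and is the long form. *Lepr-203* continues in an exon that starts at 101811348 and adds 5 codons, for 894 in all. *Lepr-202* runs on past the shared exon and adds 3 codons, for 892 in all. Both are short forms.

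The RNA levels of the 9 receptors spanned more than an order of magnitude when compared per length, as TPM (transcripts scaled to a sum of 1000000, the authors' kallisto values). The adiponectin receptors were the most abundant, the insulin, GLP1 and IGF1 receptors lay in the middle, and *Mc4r* was the lowest. Mean TPM over the 8 mice was 30.7 ± 5.13 for *Adipor1*, 28.04 ± 6.87 for *Adipor2*, 17.8 ± 3.71 for *Insr*, 13.7 ± 4.85 for *Glp1r* and 12.9 ± 3.94 for *Igf1r* (SD, n = 8). It was 9.74 ± 3.52 for *Lepr*, 9.24 ± 2.65 for *Ghsr*, 7.72 ± 3.05 for *Mc3r* and 2.24 ± 1.55 for *Mc4r* (SD, n = 8). Among the 25276 genes with any TPM, *Adipor1* ranked 5467 and *Mc4r* 14018. *Mc4r* also varied most between mice, with a highest value 8.38 times the lowest, against 1.59 times for *Adipor1*. Within the sorted RNA, fewer cells that use a receptor and less RNA per cell cannot be told apart. Markers of microglia, oligodendrocytes and other cells were present in all libraries, as described below, and the part of such cells in these levels was not tested.

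**Figure D1:**
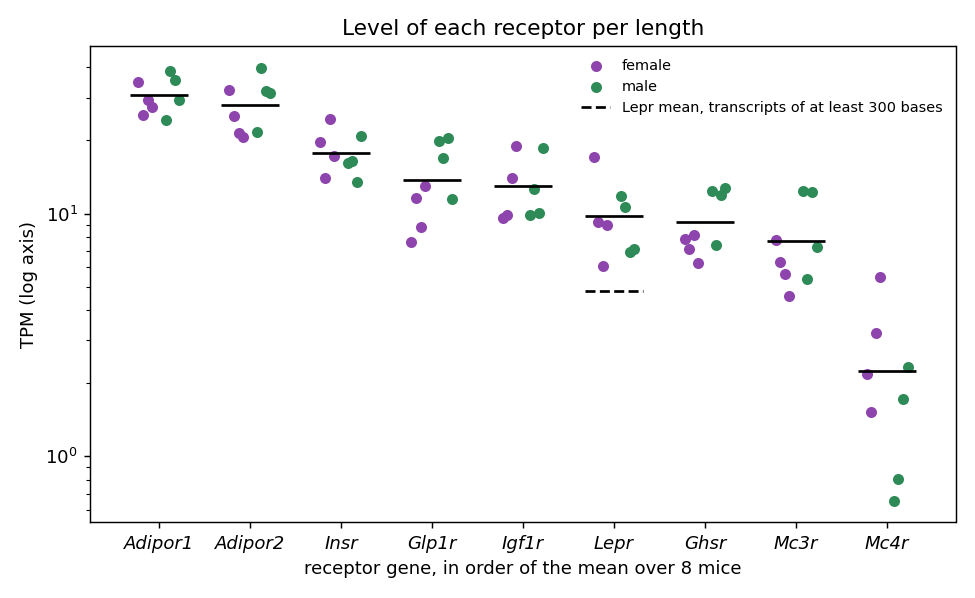
TPM of each receptor gene on a log axis, with 1 point per mouse (4 females, 4 males) and a line at the mean over 8 mice. The means fall from 30.7 for *Adipor1* to 2.24 for *Mc4r*, and the dashed line shows that the *Lepr* mean drops to 4.81 when only transcripts with an effective length of at least 300 bases are counted.

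Neighbours in this order were compared by a 2-sided exact sign-flip permutation test on the differences of log2(TPM + 0.1) within each mouse, which cannot give a p under 0.0078 for 8 mice. Of the 8 neighbouring pairs, 3 differed at an unadjusted p under 0.05. *Adipor2* lay above *Insr* by 0.64 on the log2 scale (higher in 7 of 8 mice, exact p = 0.0156), *Ghsr* above *Mc3r* by 0.30 (6 of 8 mice, exact p = 0.0469), and *Mc3r* above *Mc4r* by 1.92 (7 of 8 mice, exact p = 0.0156). The *Ghsr* and *Mc3r* comparison did not hold in the first of the 2 blocks of values that each file holds (0.24, exact p = 0.203), nor without any of 6 mice (females 1 to 4 and males 2 and 4), where the difference ranged from 0.22 to 0.34. *Adipor1* and *Adipor2* differed by 0.15 (exact p = 0.0625), *Insr* and *Glp1r* by 0.43 (exact p = 0.172), *Glp1r* and *Igf1r* by 0.06 (exact p = 0.813), *Igf1r* and *Lepr* by 0.43 (exact p = 0.156), and *Lepr* and *Ghsr* by 0.05 (exact p = 0.828). These 5 pairs were not separated beyond their spread. The place of *Lepr* rested on short annotated fragments, to which a few counts add a large TPM. Leaving out transcripts with an effective length under 300 bases, a setting chosen after seeing the data, lowered *Lepr* to 4.81 ± 1.54 TPM (SD, n = 8), below *Ghsr* by 0.94 on the log2 scale (exact p = 0.0078) and in place 8 of 9.

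The sexes were compared on counts per gene, scaled by TMM and given as CPM (counts per 1000000), with the library of each mouse as a replicate. At a Benjamini-Hochberg adjusted p under 0.05 over the 15194 genes in edgeR's quasi-likelihood test, 0 of the 9 receptors differed, against 24 genes or 0.158% of all genes tested. At an unadjusted p under 0.05, 3 of the 9 receptors differed, *Ghsr*, *Glp1r* and *Mc3r*, all lower in females, where 20.5% of all genes did so in either direction and 10.7% were lower in females. In 1 receptor, *Ghsr*, the female and male values did not overlap, as in 10.4% of all genes, 3.94% with the females lower. The median log2 fold change (female minus male) over the 9 receptors was -0.39, against -0.004 over all genes tested. DESeq2's Wald test, fitted to the same counts, called 2 of the 9 receptors, *Ghsr* (adjusted p = 0.0154) and *Glp1r* (adjusted p = 0.00704). It called 7.9% of the 12819 genes to which it gave an adjusted p, 3.6% being lower in females. In DESeq2, 5 of the 9 receptors had an unadjusted p under 0.05, against 20.9% of the genes that passed the filter on low counts.

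**Figure D2:**
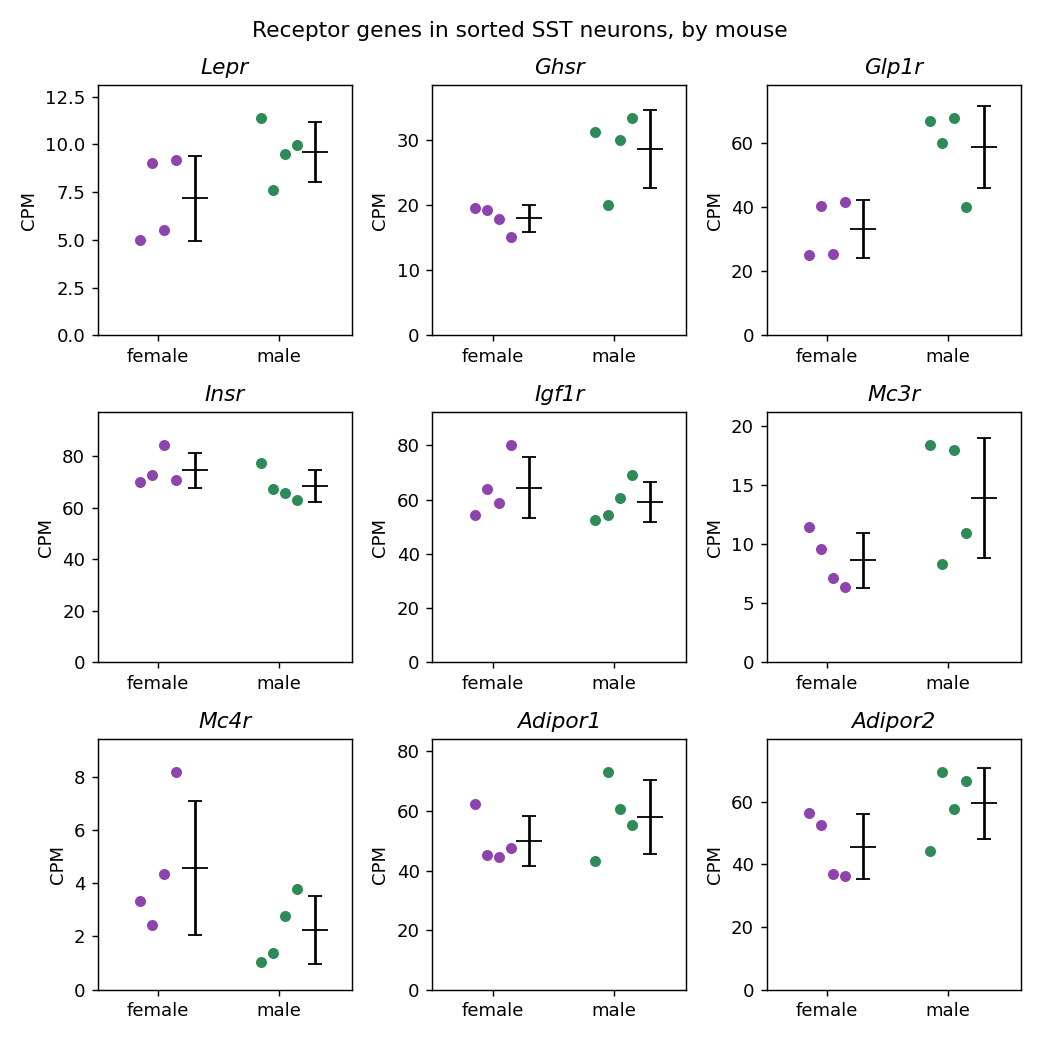
CPM of each receptor gene in the 4 females and 4 males, with the points of a sex drawn from mouse 1 to mouse 4 and bars at the mean ± SD. *Ghsr* is the receptor whose sexes do not overlap, with females at 15.1 to 19.6 and males at 19.98 to 33.5. In *Insr* male 1 lies among the females and males 2 to 4 lie below them, and in *Igf1r* the sexes overlap.

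The gut hormone receptors had the largest differences relative to their error. *Ghsr* lies on chromosome 3 (27371351 to 27378010, + strand) and is the receptor through which acyl-ghrelin raises food intake and growth hormone release. For *Ghsr*, females 1 to 4 measured 19.6, 19.2, 17.9 and 15.1 CPM and males 1 to 4 measured 31.3, 19.98, 30.03 and 33.5 CPM, from 126 to 385 counts per mouse. All males lay above all females, but male 2 exceeded female 1 by little, and the other 3 males lay well apart. The log2 fold change was -0.68 (standard error 0.173, 95% interval -1.06 to -0.29, edgeR adjusted p = 0.105), and the exact permutation p on log2 CPM was 0.0286, the smallest that 4 mice against 4 can give. The annotation holds a single *Ghsr* transcript of 364 codons, so the truncated form of the receptor could not be measured apart.

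*Glp1r* (chromosome 17, 30901817 to 30940791, + strand) encodes the target of GLP1 and of the drugs modeled on it. For *Glp1r*, females 1 to 4 measured 25.2, 40.3, 25.5 and 41.6 CPM and males 1 to 4 measured 66.9, 60.03, 68.0 and 40.2 CPM. Males 1 to 3 lay above all females, and male 4 lay among them. The log2 fold change was -0.83 (standard error 0.222, 95% interval -1.33 to -0.33, edgeR adjusted p = 0.113), with an exact permutation p of 0.0857. With each mouse left out in turn it stayed between -0.98 and -0.72. The annotated genes AC174471.1 and AC165951.1, on the opposite strand, together overlap the whole of *Glp1r*, and whether the counts used the strand of the reads is not given in the sources used here.

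The melanocortin receptors lay on opposite sides of 0. *Mc3r* (chromosome 2, 172248492 to 172251114, + strand) is found on AgRP and POMC neurons, among others, and females 1 to 4 measured 11.4, 9.62, 7.11 and 6.39 CPM while males 1 to 4 measured 18.4, 8.34, 18.0 and 10.96 CPM. Males 1 and 3 stood above all other mice, and male 2 lay below 2 of the females. Its log2 fold change was -0.70 (standard error 0.297, 95% interval -1.37 to -0.03, edgeR adjusted p = 0.231, exact permutation p = 0.143). *Mc4r* (chromosome 18, 66857704 to 66860506, - strand), whose loss causes obesity in mice and people, measured 3.33, 2.44, 4.34 and 8.19 CPM across females 1 to 4 and 1.06, 1.37, 2.77 and 3.78 CPM across males 1 to 4. Female 4 stood above all other mice, and the rest overlapped. The log2 fold change was 1.05 (standard error 0.503, 95% interval -0.08 to 2.18, edgeR adjusted p = 0.267), from 13 to 91 counts per mouse, so the interval is the widest of the 9.

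The balance between the melanocortin receptors was compared as the log2 ratio of *Mc4r* to *Mc3r* TPM, a measure chosen after the values were seen. Across females 1 to 4 it was -1.80, -1.99, -0.79 and 0.26, and across males 1 to 4 it was -4.05, -2.59, -2.77 and -1.60. *Mc3r* was the higher of the pair in all mice but female 4. The mean ratio was -1.08 ± 1.04 in females and -2.75 ± 1.01 in males (SD, n = 4 each, exact permutation p = 0.0857), a difference that did not pass a p under 0.05. The same comparison gave an exact permutation p of 0.171 for *Adipor1* over *Adipor2* and 0.629 for *Insr* over *Igf1r* (n = 4 per sex).

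*Lepr* (chromosome 4, 101717404 to 101815352, + strand) measured 4.996, 9.01, 5.53 and 9.18 CPM across females 1 to 4 and 11.4, 7.61, 9.47 and 9.95 CPM across males 1 to 4. Females 1 and 3 lay below all other mice, and the remaining values overlapped. The log2 fold change was -0.43 (standard error 0.25, 95% interval -0.99 to 0.13, edgeR adjusted p = 0.355). With an offset for the average length of the transcripts in use it was 0.08 (adjusted p = 0.934), and with the same offset restricted to transcripts of at least 300 bases it was -0.77.

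The growth factor receptors differed least. *Insr* (chromosome 8, 3122061 to 3279617, - strand) measured 69.9, 72.6, 84.3 and 70.7 CPM across females 1 to 4 and 77.1, 67.1, 65.5 and 63.0 CPM across males 1 to 4. Males 2 to 4 lay below all females, and male 1 lay among them. The means were 74.4 ± 6.72 and 68.2 ± 6.20 CPM (SD, n = 4 each), and the log2 fold change was 0.13 (standard error 0.0968, 95% interval -0.09 to 0.34, edgeR adjusted p = 0.484). *Igf1r* (chromosome 7, 67952827 to 68233668, + strand) measured 54.4, 64.0, 58.7 and 80.2 CPM across females 1 to 4 and 52.4, 54.4, 60.4 and 69.1 CPM across males 1 to 4. The log2 fold change was 0.12 (standard error 0.139, 95% interval -0.19 to 0.43, edgeR adjusted p = 0.645). The annotated genes *Vmn2r-ps88* and *Gm16180* lie within *Insr* on the opposite strand. Both intervals leave out a sex difference as large as the one fitted for *Ghsr*.

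The adiponectin receptors pass the signal of a fat hormone to AMP kinase and ceramidase activity. *Adipor1* (chromosome 1, 134415378 to 134433351, + strand) measured 62.5, 45.2, 44.6 and 47.7 CPM across females 1 to 4 and 43.1, 73.1, 60.8 and 55.2 CPM across males 1 to 4, a log2 fold change of -0.22 (standard error 0.172, edgeR adjusted p = 0.500). *Adipor2* (chromosome 6, 119353150 to 119417704, - strand) measured 56.4, 52.5, 37.0 and 36.3 CPM across females 1 to 4 and 44.3, 69.5, 57.7 and 66.6 CPM across males 1 to 4, a log2 fold change of -0.39 (standard error 0.189, edgeR adjusted p = 0.274). In both genes the sexes overlapped, and male 1 had the lowest male value.

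**Figure D3:**
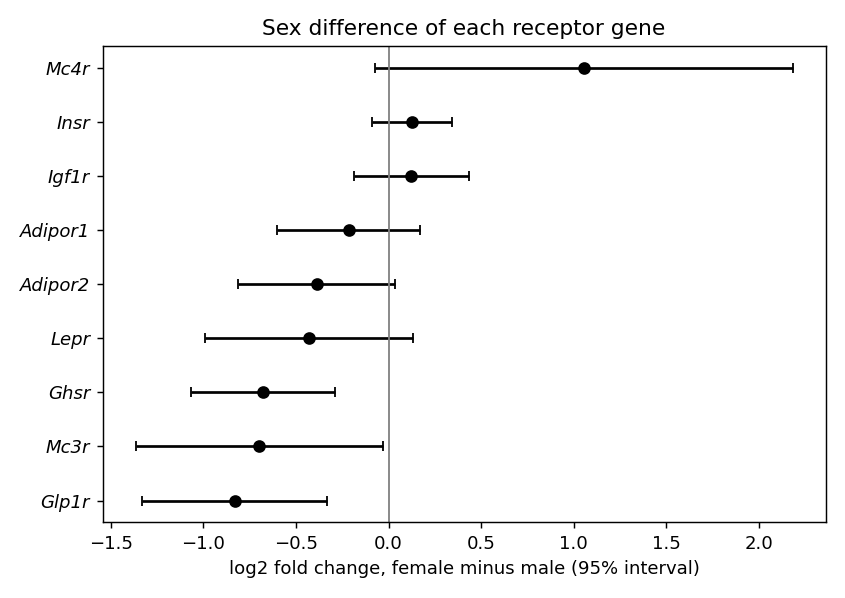
Log2 fold change (female minus male) of each receptor gene from edgeR with its 95% interval, sorted by value. The intervals of *Glp1r*, *Ghsr* and *Mc3r* lie below 0, and those of the other 6 receptors include 0.

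The long form made up most of the *Lepr* RNA that could be assigned to a form. *Lepr-201* received 22.1, 37.0, 60.5 and 72.7 estimated counts across females 1 to 4 and 105.2, 38.5, 80.5 and 28.6 across males 1 to 4. The short form *Lepr-203* received 2.6, 13.0, 4.9 and 20.5 estimated counts across females 1 to 4 and 4.8, 7.8, 9.3 and 34.6 across males 1 to 4. The short form *Lepr-202* received 9.1, 0.0, 33.4 and 0.0 across females 1 to 4 and 14.3, 17.8, 0.9 and 0.0 across males 1 to 4. The long form was ahead of both short forms in all mice but male 4, where *Lepr-203* had more counts. Of the counts on these 3 forms, the long form held 69.7% ± 14.4 (SD, n = 8), ranging from 45.3% in male 4 to 88.8% in male 3. The share was 69.6% ± 7.68 in females and 69.7% ± 20.6 in males (SD, n = 4 each, exact permutation p = 1.00). Another 16.2% ± 5.84 of the *Lepr* counts (SD, n = 8) lay on shorter transcripts that do not reach the point where the forms part or carry no full coding sequence. Assignment among forms that share most of their exons is an estimate by kallisto, and with 45 to 140 counts of *Lepr* per mouse the split between the short forms is coarse.

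**Figure D4:**
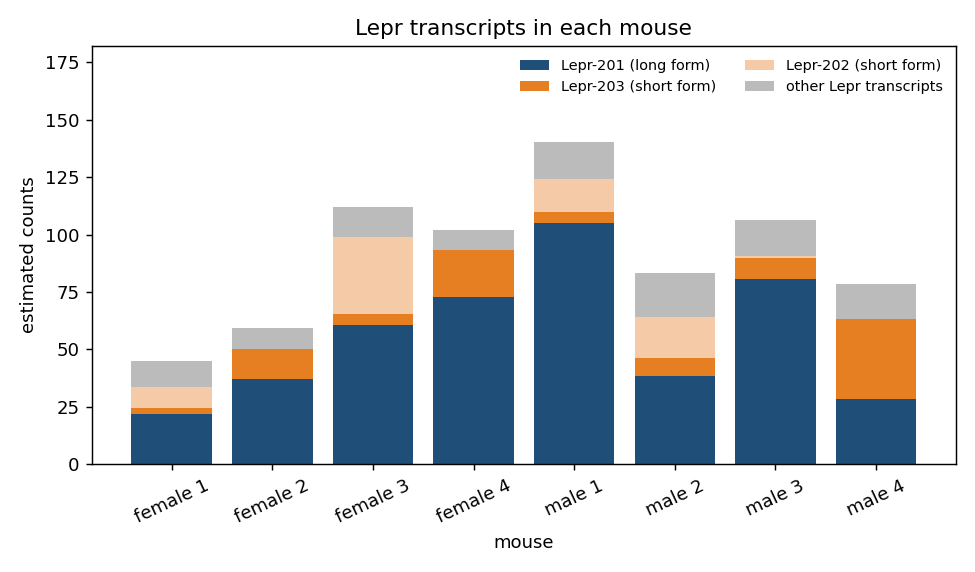
Estimated counts of the *Lepr* transcripts in each mouse, stacked by form from an axis that starts at 0. *Lepr-201*, the long form, is the largest part in each mouse but male 4, and its counts lie between 22.1 and 105.2.

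Of the 31-base words of *Lepr-201*, 3.73% also occur in the annotated gene *Gm12797*, which took no more than 0.019 counts in any mouse. *Ghsr-201* and *Mc4r-201* share no such word with another gene, and *Mc3r-201*, *Insr-201*, *Igf1r-201* and *Glp1r-201* share under 1%.

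Counts of *Adipor1* and *Adipor2* were each divided among annotated transcripts with different first exons. This split is an estimate by kallisto, and transcript starts were not measured. *Adipor1-201* held 59.9% ± 9.43 and *Adipor1-202* 34.2% ± 8.35 of the counts of the gene (SD, n = 8), and they differ in their first exon and share all 375 codons. *Adipor2-201* held 59.2% ± 5.80, *Adipor2-202*, which starts at another first exon and codes for the same 386 codons, held 27.5% ± 4.99, and *Adipor2-203*, annotated as a target of nonsense-mediated decay, held 10.5% ± 6.94 (SD, n = 8). *Adipor1-203*, a transcript with a retained intron, held 5.97% ± 4.39 of its gene. *Insr-201* held 93.6% ± 3.05 and *Igf1r-201* 94.1% ± 3.99 (SD, n = 8), and each is the sole full-length coding transcript of its gene in the annotation, so the 2 insulin receptor forms that differ by 1 small exon were not separated. Of 13 transcript shares of at least 5% in a gene with more than 1 transcript in use, 0 differed between the sexes at an unadjusted exact permutation p under 0.05, and the smallest p was 0.457, for the *Lepr-206* fragment. Tested as transcripts, 0 of the 19 receptor transcripts with enough counts passed an adjusted p under 0.05 in edgeR, against 0.00762% of 39390 transcripts tested, and 2 of 19 (*Ghsr-201* and *Glp1r-201*) had an unadjusted p under 0.05, against 7.11%, while DESeq2 also called 0 of them, against 275 of all transcripts. *Ghsr-201* was the one whose sexes did not overlap, as in 5.5% of all transcripts.

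The promoters found for these genes held more CG dinucleotides than the median promoter, to unequal degrees. Many CG are common in promoters that are active in many tissues. RefSeq promoters (GRCm38.p6, 250 bases before to 50 after the start) were found for 7 of the 9 genes, not for *Insr* and *Mc4r*. In these 300 bases the *Igf1r* promoter held 48 CG, *Adipor2* 41, the 2 of *Adipor1* 21 and 40, *Glp1r* 29, the 2 of *Lepr* 18 and 13, *Ghsr* 16 and *Mc3r* 14. All lay above the median of 7 CG over 32851 promoters, of which 43.5% held at least 10. In percentiles of CG count, those of *Lepr* lay at 70.3 and 62.1, *Mc3r* at 63.7 and *Ghsr* at 67.0. The others lay at 75.2 to 98.8. The *Adipor2* window (chr6:119388685-119388984, - strand) lies within the gene, away from its outermost GENCODE start at 119417704. That of *Igf1r* ends at 67952306, before the GENCODE start of the gene at 67952827. The promoter of *Ghsr*, the receptor whose sexes did not overlap, and that of *Igf1r*, with the most CG, are shown as examples. Each CG is in capitals. A CG reads the same on both strands.
Ghsr (chr3:27371101-27371400, + strand): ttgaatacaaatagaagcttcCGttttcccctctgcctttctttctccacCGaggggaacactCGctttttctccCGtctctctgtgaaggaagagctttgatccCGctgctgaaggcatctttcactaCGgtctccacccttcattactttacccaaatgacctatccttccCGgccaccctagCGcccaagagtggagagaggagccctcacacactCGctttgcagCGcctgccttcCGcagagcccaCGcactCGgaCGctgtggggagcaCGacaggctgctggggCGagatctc
Igf1r (chr7:67952007-67952306, + strand): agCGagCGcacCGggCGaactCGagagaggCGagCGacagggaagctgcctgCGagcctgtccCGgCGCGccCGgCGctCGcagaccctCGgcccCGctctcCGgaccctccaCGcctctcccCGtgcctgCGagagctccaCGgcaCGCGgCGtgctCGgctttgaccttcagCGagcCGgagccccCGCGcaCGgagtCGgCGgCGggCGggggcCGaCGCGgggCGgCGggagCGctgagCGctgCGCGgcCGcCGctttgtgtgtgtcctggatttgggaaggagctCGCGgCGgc
The estrogen response palindrome GGTCANNNTGACC, which reads the same on both strands, was in 0 of the receptor promoters and in 0.07% of all promoters. Its absence says only that these letters are not in the windows.

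Genes that act with the receptors were read from 7 lists of 103 genes, of which 87 were tested and 0 passed an adjusted p under 0.05 in edgeR, 33 having an unadjusted p under 0.05 (18 higher and 15 lower in females). Over all genes tested, 20.5% had such a p, 9.86% higher and 10.7% lower in females. DESeq2 called 13 of the list genes, against 7.9% of all genes to which it gave an adjusted p. In edgeR 3 were called without female 1 and 7 without male 1, against 2.67% and 2.65% of all genes. The median log2 fold change over the 87 was 0.02. Of the ligands, the melanocortin precursor *Pomc* measured 58.7, 26.7, 56.7 and 20.3 CPM across females 1 to 4 and 97.4, 63.1, 117 and 74.4 CPM across males 1 to 4 (log2 fold change -1.11, standard error 0.347, edgeR adjusted p = 0.146). Its sexes did not overlap, as in 10.4% of all genes, 3.94% with the females lower. *Agrp*, the antagonist, ranged from 2.16 to 41.2 CPM among females and from 17.9 to 56.3 CPM among males (adjusted p = 0.512). Leptin (*Lep*) and proglucagon (*Gcg*) had 0 counts in all mice. *Ins1*, *Ins2*, *Adipoq* and *Leap2* had at most 5 counts, while *Ghrl*, *Igf1* and *Igf2* had a mean of 0.773 to 1.95 CPM in each sex.

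Leptin receptor signaling genes were all present, and 5 of 10 had an unadjusted p under 0.05, all lower in females, as in 10.7% of all genes. Over the list the median log2 fold change was -0.14. *Socs3*, which leptin induces and which shuts its receptor off, measured 26.8, 19.6, 11.99 and 25.9 CPM across females 1 to 4 and 32.4, 39.1, 51.0 and 71.8 CPM across males 1 to 4 (log2 fold change -1.21, standard error 0.302, adjusted p = 0.101). *Stat3* measured 149, 102, 85.8 and 107 CPM across females 1 to 4 and 169, 198, 152 and 180 CPM across males 1 to 4 (log2 fold change -0.65, standard error 0.159, adjusted p = 0.0964). The sexes did not overlap in either gene, as in 10.4% of all genes, 3.94% with the females lower. *Jak2* was at 58.2 ± 2.82 CPM (females) and 56.7 ± 12.7 CPM (males, SD, n = 4 each, adjusted p = 0.903). The most abundant of this list per length were *Stat3*, *Ptpn1* and *Ptpn11*, with 129, 78.6 and 69.5 TPM on average. *Stat3* and *Socs3* are also used by microglia and astrocytes, whose marker lists summed to 161 to 893 and 74.7 to 326 CPM in females and 364 to 1761 and 245 to 450 CPM in males, and their part in this difference was not tested.

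Of the 22 insulin and IGF1 signaling genes, 15 had a mean TPM above that of *Insr*, and the levels of the list spanned a wide range. The adaptors *Irs4* and *Irs2* were at 305 ± 45.1 and 215 ± 15.6 CPM (females) and 348 ± 111 and 224 ± 21.4 CPM (males, SD, n = 4 each, edgeR adjusted p = 0.622 and 0.744). *Grb10*, *Grb2* and *Akt1* led the list per length, with 286, 160 and 116 TPM. Of its 21 genes tested, 3 had an unadjusted p under 0.05 in each direction, against 9.86% of all genes higher and 10.7% lower in females. The Gs and Gq signaling genes were led by *Gnas*, *Prkar1a* and *Prkacb*, with 2552, 1432 and 715 TPM on average. Of 18 tested, 8 were higher and 1 lower in females at an unadjusted p under 0.05, against 9.86% and 10.7% of all genes (median log2 fold change 0.13), the higher ones with the adenylyl cyclase *Adcy2* (106 ± 12.9 against 75.2 ± 6.87 CPM, adjusted p = 0.0798). In the melanocortin processing list, *Cpe*, *Sdc3* and *Mgrn1* led with 473, 308 and 73.9 TPM. Of its 7 genes tested, 3 were higher and 2 lower in females at an unadjusted p under 0.05, against 9.86% and 10.7% of all genes. Female and male values did not overlap in 3 genes higher and 1 lower in females, against 10.4% of all genes, 3.94% with the females lower. The accessory protein of MC4R, *Mrap2*, was at 25.3 ± 2.18 CPM (females) and 25.5 ± 4.12 CPM (males, SD, n = 4 each, adjusted p = 0.965), and *Mrap* had 0 counts in all mice. The adiponectin list was led by *Appl2*, *Asah1* and *Cdh13*, with 68.0, 56.2 and 54.4 TPM. Of its 13 genes tested, 2 were higher and 2 lower in females at an unadjusted p under 0.05, against the same 9.86% and 10.7% of all genes. Of the other hormone receptors, *Fgfr1*, *Prlr* and *Ghr* were the most abundant per length, and *Mc2r* and *Gfral* had 0 counts. *Prlr*, the prolactin receptor, averaged 101 CPM (females) and 66.4 CPM (males) (adjusted p = 0.0831), and *Ghr*, the growth hormone receptor, had 24.0 and 44.0 CPM (adjusted p = 0.101).

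In units of 1000000, the libraries held 7.83 to 17.6 estimated counts, and 3 counts, the limit of detection used here, corresponded to 0.148 to 0.458 CPM. Such limits leave out all but counting error, because reads carried no collapse to single molecules. *Lars2* took 9.28% to 34.3% of a mouse's counts, and leaving it out changed no receptor call. *Sst* ranged from 292 to 526 CPM among females and from 301 to 369 CPM among males, and the list of 10 neuronal genes summed to 2779 to 3528 and 2148 to 2814 CPM. Markers of other cells were present in all libraries, and no marker in the 8 lists of cell type markers was at 0 in all mice. Summed CPM of the 7 ventromedial nucleus neuron genes was 531 to 718 in females and 219 to 305 in males (exact permutation p = 0.0286, n = 4 per sex), and that of the 7 arcuate nucleus neuron genes was 139 to 338 and 296 to 517 (exact permutation p = 0.0857). The lists were chosen with earlier results of these data known, so these p values are no independent test of cell content. With 1 library per mouse, a different mix of sorted cells and a different level within cells cannot be told apart.

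The receptors followed these lists to unequal degrees. Over 72 relations (9 receptors by 8 lists, log2 CPM, 8 mice, exact permutation p with Benjamini-Hochberg adjustment), 5 passed an adjusted p under 0.05 by Pearson's r and 2 of them also by Spearman's rho. All points share their library, and the sexes are pooled because 4 mice per sex are too few for a value within each. The permutations ran over all 8 mice regardless of sex, so a shift of both values with sex enters r and p. The lists were also chosen with earlier results of these data known. *Mc3r* rose with the arcuate list (r = 0.914, exact p = 0.000843, adjusted p = 0.0304, and rho = 0.976, exact p = 0.000397, adjusted p = 0.0286), and r was 0.885 without female 4 and male 1, the mice farthest from the median of the list. *Insr* fell with the microglia list (r = -0.932, exact p = 0.000645, adjusted p = 0.0304, and rho = -0.952, exact p = 0.00114, adjusted p = 0.0411), and r was -0.831 without the 2 farthest mice. By r but not by rho, *Adipor2* rose with the oligodendrocyte list (r = 0.919, exact p = 0.00216, adjusted p = 0.045, rho = 0.762, adjusted p = 0.204) and with the astrocyte list (r = 0.817, exact p = 0.00268, adjusted p = 0.045, rho = 0.857, adjusted p = 0.157), and *Insr* with the neuron list (r = 0.894, exact p = 0.00313, adjusted p = 0.045, rho = 0.857, adjusted p = 0.157). Without the 2 mice farthest from the median, these were 0.759, 0.831 and 0.687. Another 13 relations had an unadjusted exact p under 0.05 for r and did not pass the adjustment. Those with the smallest p were *Ghsr* with the arcuate list (r = 0.827), *Igf1r* with the endothelial list (r = 0.830) and *Adipor2* with the microglia list (r = 0.848), each with an adjusted p of 0.0888 by exact permutation, and *Adipor1* with the microglia list (r = 0.836, exact permutation, adjusted p = 0.101). *Mc4r* gave r = 0.750 with the ventromedial list (exact p = 0.0282, adjusted p = 0.136) and -0.752 with the arcuate list (exact p = 0.032, adjusted p = 0.144). Without the 2 mice farthest from the median of each list, these 6 were 0.690, 0.627, 0.726, 0.982, 0.532 and -0.067, so the last rested on female 4 and male 1. Their rho was 0.810, 0.810, 0.810, 0.762, 0.810 and -0.643, with exact permutation p adjusted to 0.157 to 0.360. *Glp1r* also fell with the ventromedial list (r = -0.778) and *Igf1r* with the arcuate list (r = -0.739). Each had an adjusted p of 0.150 by exact permutation, and without the 2 farthest mice r was -0.869 and -0.0745. The rest were *Insr* and *Adipor1* with the oligodendrocyte list, *Adipor2* with the neuron list, *Insr* with the astrocyte list and *Lepr* with the tanycyte and ependymal list. By exact permutation their adjusted p was 0.129 to 0.132.

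**Figure D5:**
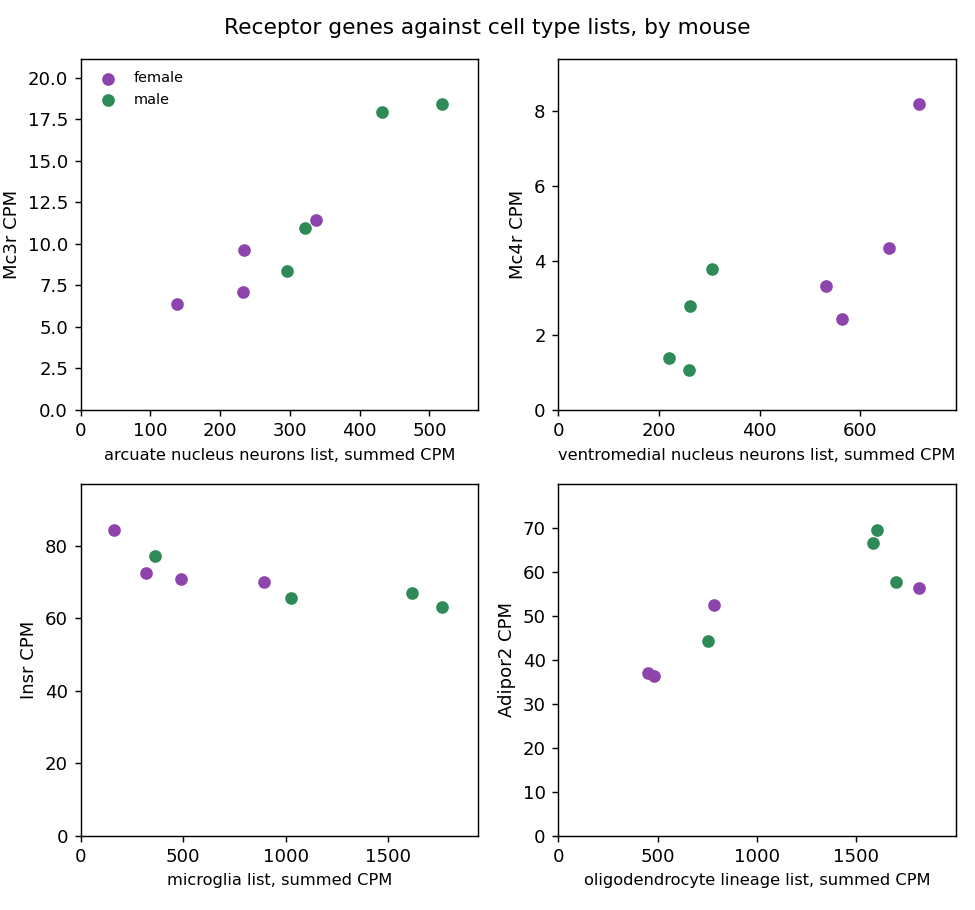
CPM of 4 receptor genes against the summed CPM of a cell type list in the same library, with 1 point per mouse. *Mc3r* rises with the arcuate list and *Insr* falls with the microglia list over the 8 mice, and in the *Mc4r* panel the female and male libraries lie apart on the ventromedial axis (531 to 718 against 219 to 305 CPM).

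The sex difference was fitted again with the mean of a list as a covariate, which was chosen after seeing the data except for the neuron list. The *Mc4r* log2 fold change went from 1.05 to -0.09 with the ventromedial list (adjusted p = 0.945) and to 0.58 with the arcuate list, and was 2.03 with the neuron list and 1.57 with the microglia list. *Mc3r* went from -0.70 to -0.42 with the arcuate list and -0.36 with the ventromedial list. The summed ventromedial list was at 531 to 718 CPM in females and 219 to 305 CPM in males, without overlap. A fit with this list as covariate therefore cannot divide a difference between sex and list. Some directions turned with the neuron and microglia lists. *Adipor2* went from -0.39 to 0.14 and -0.07, *Adipor1* from -0.22 to 0.31 and 0.09, and *Insr* from 0.13 to -0.14 and -0.03. *Igf1r* went from 0.12 to -0.01 with the arcuate list and -0.26 with the ventromedial list. *Ghsr* stayed between -0.88 and -0.56 and *Glp1r* between -0.96 and -0.85 in these 4 fits. None of the 9 receptors passed an adjusted p under 0.05 in any of them (edgeR), and at an unadjusted p under 0.05 the count was 4 with the neuron list (6.88% of all genes), 2 with the arcuate list (20% of all genes), 1 with the ventromedial list (15.7%) and 4 with the microglia list (8.15%). *Lepr*, whose difference was -0.43 without a covariate, was at -0.76 with the ventromedial list (adjusted p = 0.352).

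Among the receptors themselves, Pearson's r of log2 CPM over the 8 mice, given as a description, was highest for *Ghsr* and *Mc3r* (0.83), *Igf1r* and *Mc4r* (0.80), *Lepr* and *Glp1r* (0.79) and *Adipor1* and *Adipor2* (0.77), and lowest for *Insr* and *Adipor2* (-0.78). The genes whose pattern over the 8 mice was most like that of each receptor were taken as the 3 with the highest r among 11879 genes (11880 for *Mc4r*) with a mean of at least 5 CPM. For *Ghsr* they were *Cysltr1* (0.973), *Pdyn*, the precursor of dynorphin (0.968), and *Acvr1c* (0.964). For *Mc3r* they were *Mcm7* (0.967), the neuropeptide Y receptor *Npy5r* (0.949) and *Ptprk* (0.944). For *Mc4r* they were *Mmp16* (0.980), *Thada* (0.962) and *Igsf9b* (0.960). *Lepr* was closest to *Dapk3* (0.965), the synuclein gene *Sncg* (0.957) and *Ptpn13* (0.937), and *Glp1r* to the homeobox gene *Dlx1* (0.933), *Dennd6a* (0.929) and *Ccn1* (0.925). *Insr* was closest to *Vars2* (0.981), *Igsf3* (0.961) and *Zranb2* (0.960), and *Igf1r* to *Spen* (0.938), *Bean1* (0.932) and *Ikzf5* (0.916). *Adipor1* was closest to *Ell2* (0.990), the cholesterol-esterifying enzyme gene *Soat1* (0.985) and *Gnai3* (0.983), and *Adipor2* to *Samd4b* (0.979), *Cmtm5* (0.979) and *Bcas1* (0.978), the last of which is known from oligodendrocytes. With 8 mice, many genes reach such values.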

How the data were processed

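The authors sequenced RNA of sorted tdTomato-positive TN cells, 1 library for each of 4 female and 4 male *Sst-Cre* mice, with a stranded total RNA kit as single-end reads. The authors assigned reads to mm10 transcripts with kallisto 0.46.2 (per the submitters' processing notes) and deposited estimated counts, which need not be whole, and TPM, used here as a score because each file holds 2 blocks of 118489 transcripts, each with TPM that sum to 1000000. What the blocks stand for is not given in the sources used here. The 2 blocks were summed for counts, and the deposited TPM were averaged over them. The authors' own test was DESeq2 (2.11.40.6).

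Transcripts were joined to genes with GENCODE M21 (116728 transcripts, 35968 genes), leaving out 0.429% to 0.611% of a mouse's counts. Gene sums were rounded. Females were set against males with edgeR 4.0.16 under R 4.3.3 (limma 3.58.1 loaded), using TMM scaling, the default low-count filter and the quasi-likelihood test, with a Benjamini-Hochberg threshold of 0.05 and DESeq2 1.42.0 as an alternative. Log2 CPM used a prior count of 2, log2 TPM and CPM elsewhere a pseudocount of 0.1. Simulated counts with planted changes were used to check the fit. Python 3.11.15 with numpy 2.4.6, pandas 2.3.3, scipy 1.17.1 and matplotlib 3.10.9 ran the exact tests, all 2-sided, and the plots. Depth, in units of 1000000 estimated counts, was 7.83 to 17.6 per mouse.

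The receptors, lists and tests were chosen with earlier results of these data known. The genes named are the 9 receptors, their transcripts with a mean share of at least 5% or that separate known forms, the 3 genes of each list with the highest mean TPM, the listed ligands, *Mrap2*, *Socs3*, *Jak2*, *Stat3* and *Irs2*, and the 3 genes most like each receptor. *Adcy2*, *Irs4*, *Mrap*, *Mc2r*, *Gfral*, *Gm12797* and the genes that overlap *Glp1r* or *Insr* were named after their values were seen. Alternatives were other tests, scalings, filters and offsets, each block alone, list means as covariates, a replicate block and leaving out each mouse.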

Additional observations from a re-analysis of the deposited data

Results flagged for a closer look

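Of 44 sets of 4 mice (CPM of each receptor and share of each of the 13 receptor transcripts compared by share, in females and in males), 2 held a mouse whose gap to the nearest other mouse exceeded Dixon's critical value of 0.829 of the range, where chance gives about 1 in 20. Male 4 had 44.1% of its *Lepr* counts on the short form *Lepr-203*, against 3.44% to 9.34% in the other males. Male 2 had 23.7% of its *Adipor2* counts on *Adipor2-203*, against 5.65% to 6.51% in the other males.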

How the results depend on the processing

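The count of receptors past an adjusted p of 0.05 was 0 in each alternative but DESeq2, which gave 2. Over all genes the 24 calls became 1013 with DESeq2, 1 with the replicate block, 13 with the length offset, 5 with the neuron, 9 with the arcuate, 2 with the ventromedial and 13 with the microglia list as covariate, 11 with the offset over transcripts of at least 300 bases, and 8 to 415 without 1 mouse. List genes called went from 0 to 13 with DESeq2 and 0 to 7 without 1 mouse (3 without female 1, 7 without male 1). The 3 transcript calls became 275 with DESeq2, 0 with the replicate block and 0 to 3 without 1 mouse. Deviations from the mean of the sex correlated at -0.40 to 0.07 between same-numbered mice, and only female 4 was most like the male of its number. Whether same-numbered mice shared a batch is not given in the sources used here. The replicate block changed no receptor call. Directions that turned were those of *Igf1r*, at -0.0522 with the length offset, -0.0592 over transcripts of at least 300 bases, -0.0134 with the arcuate and -0.26 with the ventromedial list, and -0.00658 to 0.205 without 1 mouse (-0.00658 without female 4), *Lepr* (0.0796, length offset), *Mc4r* (-0.0935, ventromedial list), *Insr* (-0.14 with the neuron and -0.0266 with the microglia list), *Adipor1* (0.308 and 0.0872, the same lists) and *Adipor2* (0.14, neuron list), none of them called. For levels, 5 neighbouring pairs instead of 3 differed in the second block of values and over transcripts of at least 300 bases. *Glp1r* over *Igf1r* turned to -0.048 (the second block), -0.32 (females) and -0.0802 to 0.163 (without 1 mouse), *Lepr* over *Ghsr* to -0.31 (the second block), -0.29 (males), -0.94 (at least 300 bases) and -0.0991 to 0.176 (without 1 mouse), and *Insr* over *Glp1r* to -0.023 (males). The cause was not tested. Isoform shares gave 0 in each alternative. Low counts limit *Mc4r* and the *Lepr* forms.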
